A study of Mus musculus with 238 samples.

Results

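The posterior and the anterior hippocampus of the same control mice were compared across all genes. Members were chosen by the tissue and treatment in the labels: control libraries only, from every control mouse with both dissections of the hippocampus. This gave 14 of the 238 libraries of the series, from 7 of its 16 mice. All mice of these groups were of the C57BL/6JN strain and 19 months old, and the labels name no genetic change. The 4 AL mice (63, 66, 68 and 69) were females fed ad libitum, the controls of a dietary restriction experiment. The 3 PBS mice (76, 80 and 84) were males given saline behind the eye, the controls of an experiment with plasma of young mice (YMP). Sex, experiment and injection therefore moved together and cannot be told apart. Another PBS mouse, 72, had an anterior library alone and entered no paired test. The labels give the posterior and anterior samples as separate dissections of bulk tissue and name no subfield. Gene levels were measured by unstranded sequencing of Smart-Seq2 cDNA from the homogenised tissue, so reads of overlapping or antisense genes and of near-identical copies cannot be told apart.

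The hippocampus is a curved sheet of cortex that runs, in a rodent, from a septal (dorsal) pole at the front and top of the brain to a temporal (ventral) pole at the back and below. Its trisynaptic circuit passes from granule cells of the dentate gyrus to the pyramidal cells of CA3 and CA1 and on to the subiculum. The septal pole is known for its part in spatial memory and the temporal pole for emotion and stress, and several genes are known to grade along this axis in pyramidal cells. In bulk tissue, fewer cells of a type and less RNA per cell cannot be told apart.

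The anterior libraries held 1957388 to 12806005 counts (median 6445023) and the posterior libraries 7033737 to 15182679 counts (median 11600919). The posterior library was the deeper of the pair in 6 of 7 mice, so the anterior level of a low gene was the less precise. Mitochondrial genes took 1.95% to 2.72% of the anterior and 2.12% to 2.42% of the posterior counts. Dsp, which codes for desmoplakin and marks dentate granule cells, checked the hippocampal label and averaged 27.2 CPM (counts scaled to the library total) in the anterior and 10.2 CPM in the posterior libraries, against at most 2.59 CPM in any of 13 other brain regions of control mice. That check rests on 1 of 7 dentate genes. By plain library totals, their sum was 129.7 to 735 CPM in posterior hippocampus, 340 to 453 CPM in thalamus and 329 to 377 CPM in olfactory bulb. The sum therefore did not set every posterior library apart. The anterior library of mouse 76 stood apart in genes of the choroid plexus, the tissue that makes cerebrospinal fluid. The summed level of 12 such genes was 1585 CPM there and 18.4 to 33.2 CPM in the other 6 anterior libraries. Ttr (transthyretin) alone was at 1378 CPM there and at most 0.154 CPM in the others.

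Of 21076 genes in the table, 13637 passed the filter on low counts and were tested. Called here means an adjusted p under 0.05 from the quasi-likelihood test of edgeR, paired by mouse, with Benjamini-Hochberg adjustment over all genes tested. A total of 2452 genes were called, which is 18.0% of those tested. Of these, 1452 genes (10.6%) were higher in the posterior and 1000 genes (7.33%) higher in the anterior hippocampus. Most differences were small: 826 called genes differed at least 1.5-fold, 171 were at least 2-fold higher in the posterior and 131 at least 2-fold higher in the anterior part. The median log2 difference over all tested genes, posterior minus anterior, was -0.0048. A difference of 1 sign in all 7 mice was seen for 1296 genes higher in the posterior (9.50% of those tested) and 803 lower there (5.89%). The 7 posterior values did not overlap the 7 anterior values for 289 genes higher in the posterior part (2.12%) and 123 genes higher in the anterior part (0.902%).

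Mice 68 and 76 were the least like the others among the genes called higher in the posterior part. The pair difference, taken on log2(CPM + 0.5), was positive for 90.3% of these 1452 genes in mouse 68 and 88.2% in mouse 76, against 97.7% to 98.7% in the other 5 mice. Among the genes called higher in the anterior part, mouse 76 and mouse 63 had the lower shares, with 86.9% and 87.3% against 96% to 98.5%. These shares describe the spread among mice and were used for no test, since the same mice made the calls. Without mouse 80, whose anterior library was the shallowest, 1422 genes were called, and without mouse 66 there were 1592.

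**Figure D1:**
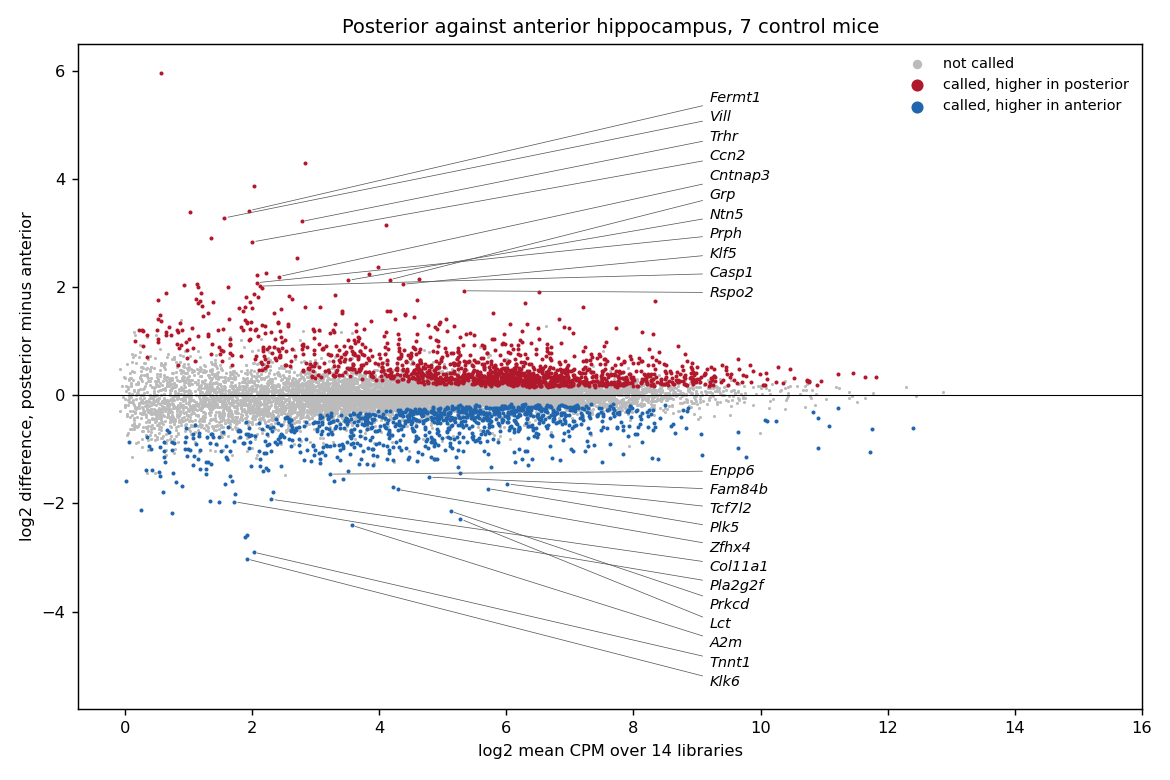
Each point is 1 of the 13637 tested genes: the horizontal axis is log2 of its mean CPM over the 14 control libraries, the vertical axis its log2 difference (posterior minus anterior, edgeR). Red points are the 1452 genes called higher in the posterior and blue points the 1000 called higher in the anterior part, with genes among the 12 largest differences in each direction by the naming rule labelled; most called genes lie close to 0, and the largest differences belong to genes of low or middle level.

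The promoters of a gene at each end of the list are shown because they are the stretches just before the start of Fermt1, the gene with the largest named difference toward the posterior part, and Lct, the septal pole gene with the largest difference toward the anterior part. Each is the 250 bases before the start in RefSeq (GRCm38.p6), 5′ to 3′ on the strand of the gene. The Fermt1 window is chr2:132946037-132946286, minus strand, and its capitals mark an E-box, CAGATG. The Lct window is chr1:128328319-128328568, minus strand, and holds none of the 4 motifs searched. The bases after each start were also looked for near the beginning of the GENCODE transcripts of the gene. They were found in 1 transcript of Lct and in 0 of Fermt1, so the Fermt1 start rests on RefSeq alone.
Fermt1: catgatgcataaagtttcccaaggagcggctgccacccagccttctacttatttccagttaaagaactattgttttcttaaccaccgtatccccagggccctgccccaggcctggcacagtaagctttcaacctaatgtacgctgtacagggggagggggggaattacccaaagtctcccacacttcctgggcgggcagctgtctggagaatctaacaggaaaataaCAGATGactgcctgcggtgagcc
Lct: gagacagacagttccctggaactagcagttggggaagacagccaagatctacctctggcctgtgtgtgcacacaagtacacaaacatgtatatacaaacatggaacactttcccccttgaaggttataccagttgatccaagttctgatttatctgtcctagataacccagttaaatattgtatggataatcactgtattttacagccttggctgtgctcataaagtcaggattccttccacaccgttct
The motifs, searched on both strands, were TGACGTCA (the cyclic AMP response element), AGGTCA (a nuclear receptor site), CAGATG (an E-box) and CTTTGAT (a TCF/LEF site), and none of them contains another. Windows were at hand for 10710 of the tested genes. The E-box was in 12% of 1102 windows of genes higher in the posterior part, in 12.1% of 784 windows of genes higher in the anterior part and in 9.91% of all 10710 windows. TGACGTCA was in 3.18%, 1.91% and 2.77%, AGGTCA in 8.17%, 11.1% and 10.2%, and CTTTGAT in 1.63%, 2.30% and 2.20% of the same 3 sets.

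Among genes higher in the posterior part, Fermt1 codes for kindlin-1, an activator of integrins, and lies at chr2:132904177-132946036. It ran from 0.152 to 1.20 CPM in the anterior libraries (median 0.502) and from 3.14 to 13.0 CPM in the posterior ones (median 3.76). The 2 parts did not overlap, and the log2 difference was 3.42 ± 0.245 (SE, n = 7 pairs; edgeR adjusted p = 0.000155). Trhr, the receptor of thyrotropin-releasing hormone, was at 0.308 to 3.16 CPM (median 1.29) in the anterior and 4.19 to 20.9 CPM (median 11) in the posterior part. These values did not overlap either, with the lowest posterior value in mouse 66 and the highest in mice 69 and 84. Its log2 difference was 3.22 ± 0.417 (SE; edgeR adjusted p = 0.00165).

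Rspo2, a secreted enhancer of Wnt signalling, shared the smallest adjusted p with Sstr1. Rspo2 ran from 4.92 to 30.4 CPM (median 13.6) in the anterior and from 21.3 to 93.4 CPM (median 61.6) in the posterior part. Mouse 68 had the lowest value in both parts, so the 2 ranges overlapped although all 7 pairs rose, by 1.93 ± 0.115 on the log2 scale (SE; edgeR adjusted p = 8.11e-05). Sstr1, a receptor of somatostatin, ran from 2.94 to 8.23 CPM (median 5.58) in the anterior and from 8.26 to 27.1 CPM (median 16.5) in the posterior part. The parts did not overlap, though the lowest posterior value, in mouse 76, lay just above the highest anterior value, in mouse 84; the log2 difference was 1.52 ± 0.0954 (SE; edgeR adjusted p = 8.11e-05). Arhgap33, a regulator of small GTPases, was at 30.8 to 44.3 CPM (median 36.6) in the anterior and 66.1 to 85.9 CPM (median 73.0) in the posterior part. Its 2 ranges lay well apart in every mouse, with a log2 difference of 1.04 ± 0.0688 (SE; edgeR adjusted p = 8.77e-05).

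Ntn5, of the netrin family of secreted proteins, was at 1.13 to 8.38 CPM (median 4.19) in the anterior and 15.0 to 24.1 CPM (median 18.0) in the posterior part. No anterior value reached a posterior one, and the log2 difference was 2.13 (edgeR adjusted p = 0.00117). The other large differences toward the posterior part overlapped between parts. They included those of Vill (a villin-like actin-binding protein, log2 difference 3.28), Ccn2 (connective tissue growth factor, 2.84), Cntnap3 (a neuronal adhesion protein, 2.20), Grp (gastrin-releasing peptide, 2.14), Prph (peripherin, an intermediate filament, 2.08), Klf5 (a zinc finger transcription factor, 2.05) and Casp1 (caspase-1, the inflammasome protease, 2.02). Each was higher in the posterior part in all 7 mice.

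In some of these genes the overlap came from the posterior libraries of mice 68 and 76. Klf5 was at 6.47 CPM in mouse 68 and 9.03 CPM in mouse 76, and at 29.1 to 56.4 CPM in the other 5 posterior libraries. Ccn2 was at 0.441 and 1.45 CPM in those mice and at 7.82 to 12.2 CPM in the other 5. Grp differed from these, with posterior values of 15.4 CPM in mouse 68, 19.4 CPM in mouse 76 and 17.9 to 45.4 CPM in the others. Its anterior values reached from 0.453 CPM in mouse 76 to 15.9 CPM in mouse 63.

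**Figure D2:**
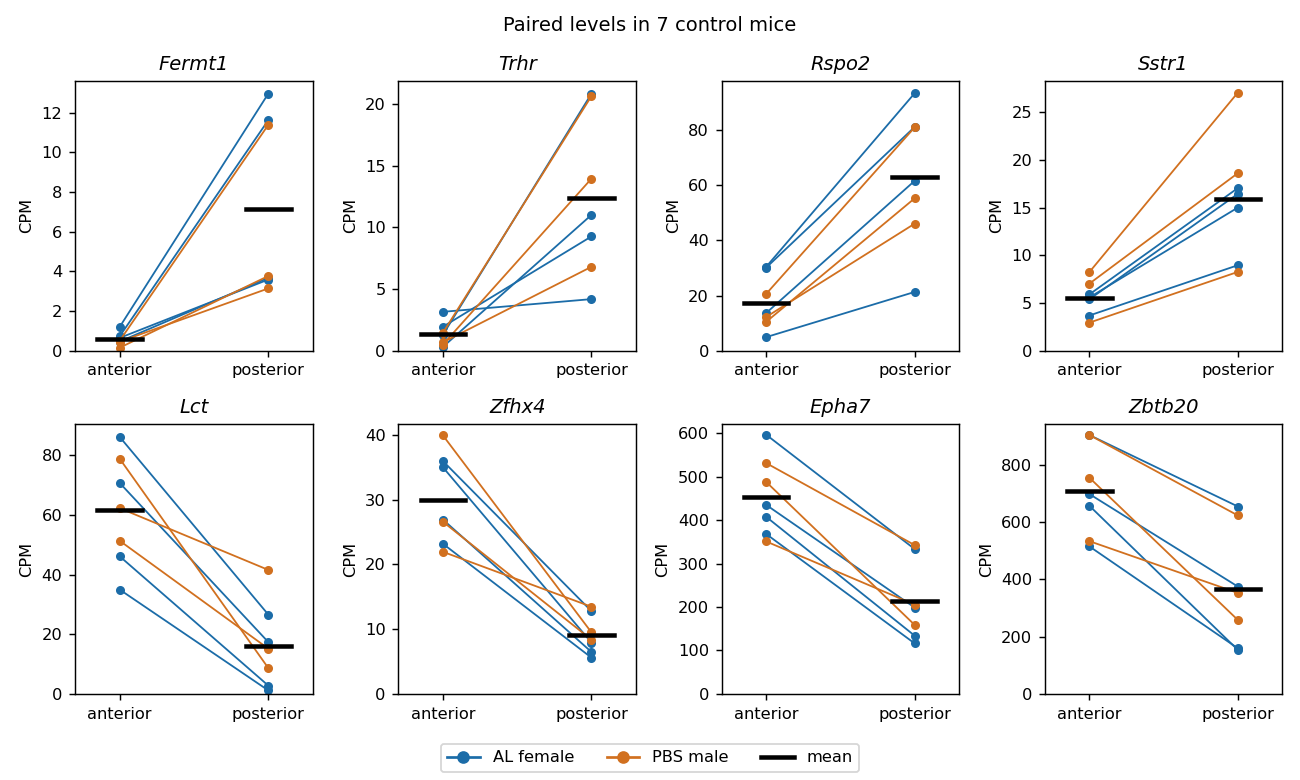
Levels (CPM, linear axis from 0) of 8 genes in the anterior and posterior hippocampus, 1 line per mouse (blue, 4 AL females; orange, 3 PBS males), with the mean of 7 as a black bar. Fermt1, Trhr, Rspo2 and Sstr1 rise and Lct, Zfhx4, Epha7 and Zbtb20 fall toward the posterior part in every mouse, while the ranges of Rspo2, Lct and Zbtb20 overlap between parts.

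Among genes higher in the anterior part, Klk6, a serine protease made by oligodendrocytes, was at 2.54 to 11.1 CPM (median 7.02) in the anterior and 0.230 to 2.13 CPM (median 0.724) in the posterior part. The parts did not overlap, with the closest values in mice 63 and 66, and the log2 difference was -3.03 ± 0.445 (SE; edgeR adjusted p = 0.00267). Zfhx4, a zinc finger homeobox transcription factor, ran from 22.0 to 39.9 CPM (median 26.9) in the anterior and from 5.6 to 13.5 CPM (median 8.38) in the posterior part. Its ranges were apart as well, and its log2 difference of -1.74 ± 0.166 had the smallest adjusted p toward the anterior part (SE; edgeR adjusted p = 0.000507), together with Clmp, an adhesion molecule (-1.18), and Lingo3, a leucine-rich repeat protein (-0.85). Fam84b also gave 2 separate ranges, 29.6 to 53.7 CPM (median 40.3) in the anterior and 7.66 to 26.7 CPM (median 11.8) in the posterior part. Mouse 76 held its highest posterior value, and the log2 difference was -1.51 (edgeR adjusted p = 0.00346).

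Prkcd, protein kinase C delta, ran from 11.9 to 114 CPM (median 62.7) in the anterior and from 8.58 to 16.3 CPM (median 11) in the posterior part. The anterior values of mice 63 and 66 (19.9 and 11.9 CPM) were far below those of the other 5 mice (61.8 to 114 CPM). Its log2 difference was -2.14 ± 0.286 (SE; edgeR adjusted p = 0.00185). Tcf7l2, a transcription factor of the Wnt pathway, ran from 23.6 to 241 CPM in the anterior part and from 21.8 to 31.8 CPM in the posterior part. Here mice 63, 66 and 76 were at 23.6 to 35.7 CPM in the anterior part, close to their posterior levels. The log2 difference of -1.64 (edgeR adjusted p = 0.0208) was no longer called without mouse 68, 69 or 80, with an adjusted p of up to 0.0665. Tnnt1, a troponin, was at 12.4 to 16.2 CPM in the anterior libraries of mice 69, 80 and 84, at 0.679 to 4.00 CPM in those of the other 4 and at no more than 1.19 CPM in any posterior library (log2 difference -2.90, edgeR adjusted p = 0.0047). The other large differences toward the anterior part were of A2m (a protease inhibitor, -2.40), Pla2g2f (a secreted phospholipase, -1.97), Col11a1 (a collagen chain, -1.92), Plk5 (of the polo-like kinase family, -1.72) and Enpp6 (a choline phosphodiesterase of young oligodendrocytes, -1.46).

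Genes known to mark the 2 poles followed their label in part. The counts of this and every later list stand against 10.6% of all tested genes higher and 7.33% lower in the posterior part. Of 7 septal pole genes, 3 were lower in the posterior part and 4 were not called, with a median log2 difference of -0.81. Lct, which codes for lactase, ran from 34.9 to 86.1 CPM (median 62.2) in the anterior and from 1.19 to 41.6 CPM (median 15.2) in the posterior part. It fell in all 7 mice, but the posterior value of mouse 76 (41.6 CPM) passed the lowest anterior value, in mouse 66; the log2 difference was -2.29 ± 0.394 (SE; edgeR adjusted p = 0.0049). Pdzd2, a PDZ domain protein, was at 18.1 to 40.1 CPM (median 25.6) in the anterior and 14.4 to 21.1 CPM (median 20.3) in the posterior part. It fell in every mouse but 76, by 0.60 on the log2 scale (edgeR adjusted p = 0.0121). Iyd, iodotyrosine deiodinase, fell by 1.49 (edgeR adjusted p = 0.0379). That call was lost without mouse 63, 66, 76, 80 or 84, with an adjusted p of up to 0.106, and the mean of the anterior part leaned on 15.6 CPM in mouse 76.

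The other 4 septal genes were not called. Wfs1, which marks dorsal CA1 and codes for wolframin, went against its label in 5 of 7 mice. It ran from 68.3 to 184 CPM (median 123) in the anterior and from 66.9 to 373 CPM (median 265) in the posterior part. Its posterior values were 69.1 CPM in mouse 68 and 66.9 CPM in mouse 76, below their anterior values, and 259 to 373 CPM in the other 5. The log2 difference was 0.83 ± 0.420 (SE; edgeR adjusted p = 0.197), and Wfs1 was called without mouse 76 (adjusted p = 0.0343). Spink8 had a log2 difference of -1.03 (edgeR adjusted p = 0.0772) and was called without mouse 68 (adjusted p = 0.0483). Fibcd1 had -0.81 (edgeR adjusted p = 0.177), which was -0.47 without mouse 66, and Ajap1 had 0.01 (edgeR adjusted p = 0.99), with no stable direction when single mice were left out (-0.35 to 0.27).

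Of 9 temporal pole genes, 4 were higher in the posterior part, none was lower and the median log2 difference was 0.29. These were Trhr, Grp, Dcn and Nr2f2. Dcn, the proteoglycan decorin, ran from 5.89 to 38.5 CPM (median 26.9) in the anterior and from 21.8 to 109.9 CPM (median 58.2) in the posterior part. It rose in all mice but 68, where the levels were 22.0 and 21.8 CPM, and the log2 difference was 1.15 ± 0.188 (SE; edgeR adjusted p = 0.00405). Nr2f2, the orphan nuclear receptor COUP-TFII, ran from 8.38 to 40.4 CPM (median 19.1) in the anterior and from 27.2 to 53.4 CPM (median 35) in the posterior part. It rose in all 7 mice, and the ranges overlapped through mouse 84, the highest in both parts; the log2 difference was 0.81 ± 0.145 (SE; edgeR adjusted p = 0.0058). With the pairing left out, Dcn (edgeR adjusted p = 0.051) and Nr2f2 (edgeR adjusted p = 0.0746) were not called.

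Tox3 (log2 difference 0.28, edgeR adjusted p = 0.163), Coch (-0.24, adjusted p = 0.612) and Nmb (-0.78, adjusted p = 0.127) were not called, and Nmb lay lower in the posterior part in all 7 mice. Htr2c had 0.29 (edgeR adjusted p = 0.267) and was called without mouse 84 (0.50, adjusted p = 0.0344). Etv1 had -0.21 (edgeR adjusted p = 0.603). It was lower in the posterior part in 6 mice and higher in mouse 76, without which it was called in the direction opposite to its label (-0.49, adjusted p = 0.0166).

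Among the subfields, genes of dentate granule cells stood lower in the posterior part. Of 7 such genes, 5 fell, none rose and the median log2 difference was -0.91. Stxbp6, a regulator of the SNARE complex, ran from 173 to 310 CPM (median 250.1) in the anterior and from 62.3 to 238 CPM (median 145) in the posterior part. It fell in every mouse but 76 (200.3 and 238 CPM), with a log2 difference of -0.91 ± 0.198 (SE; edgeR adjusted p = 0.0126). Dsp fell by 1.69 (edgeR adjusted p = 0.0237) and Prox1, the transcription factor that sets granule cell identity, by 1.04 (edgeR adjusted p = 0.0295). Both were higher in the posterior part of mouse 76. The Dsp call was lost without mouse 69 or 80 (adjusted p of up to 0.0669) and the Prox1 call without mouse 63, 66, 69 or 80 (up to 0.0813). C1ql2 and Rfx3 also fell, Tdo2 and Glis3 were not called, and the count of 5 became 1 without mouse 69 or mouse 80. The summed level of the 7 genes was 530 to 992 CPM in the anterior and 131 to 755 CPM in the posterior part, lower in 6 mice.

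Genes of pyramidal cell fields showed no common direction. In CA1, 2 of 7 genes rose, among them Mpped1 (a phosphoesterase, log2 difference 1.25, edgeR adjusted p = 0.00253), while the list median was -0.09. Wfs1, Fibcd1 and Spink8 of this list are also septal pole genes, so the 2 lists are not separate. The summed level of the 7 genes was 302 to 821 CPM (median 462.5) in the anterior part. In the posterior part it was 504 to 980.5 CPM (median 772), and it was lower there in 1 mouse. Mpped1 ran from 65.6 to 218 CPM (median 99.9) in the anterior and from 197 to 392 CPM (median 302) in the posterior part. It was higher in the posterior part of every mouse, and the ranges met through the anterior libraries of mice 63 and 66 and the posterior ones of mice 68 and 76. In CA2, Necab2 (a calcium-binding protein, 1.31) and Map3k15 (a kinase, 0.26) rose and Cacng5 (an AMPA receptor auxiliary subunit, -0.96) fell, of 6 genes tested with a median of -0.50. In CA3, Cdh24 fell (-1.03, edgeR adjusted p = 0.0387), of 5 genes with a median of -0.10. That call was lost without mouse 63, 66, 69, 80 or 84 (adjusted p of up to 0.107).

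Of 6 mossy cell genes with a median of -0.10, Calb2 (calretinin) alone rose, by 0.84 (edgeR adjusted p = 0.0447), a call lost without mouse 63, 66, 68, 69, 80 or 84 (adjusted p of up to 0.0969). In mouse 76 the level was 7.70 CPM in the anterior and 66.3 CPM in the posterior part. In the subiculum list, 2 of 5 genes rose, with a median of 0.70. Fn1 (fibronectin) was at 9.51 to 41.8 CPM in the anterior and 17.9 to 83.0 CPM in the posterior part, rising in all 7 mice (log2 difference 0.94, edgeR adjusted p = 0.00524). Ly6g6e rose by 1.20 (edgeR adjusted p = 0.0407), a call lost without mouse 63, 66, 69, 76, 80 or 84 (adjusted p of up to 0.10). The summed level of the 5 genes was 39.2 CPM in the anterior and 167 CPM in the posterior part of mouse 76, and 116 and 45.1 CPM in mouse 68. This list shares Slc17a6 with the thalamic list. By plain library totals, its sum was 692.5 to 944 CPM in thalamus, 276 to 368 CPM in medulla and 14.5 to 50.1 CPM in caudate putamen. The sum is therefore no measure of subiculum alone. Among 11 genes of GABAergic interneurons with a median of 0.38, Vip (vasoactive intestinal peptide, log2 difference 1.36, edgeR adjusted p = 0.00311), Lhx6 (a LIM homeobox factor, 0.88, edgeR adjusted p = 0.00897) and Htr3a (a serotonin-gated channel, 1.0, edgeR adjusted p = 0.0428) rose. The markers Gad1, Gad2, Slc32a1, Pvalb, Sst, Npy, Cck and Reln were not called. The Htr3a call was lost without mouse 68, 69, 76, 80 or 84 (adjusted p of up to 0.107).

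Genes of tissues beside the hippocampus also moved with the 2 parts, in different mice. Of 8 neocortical genes, 5 were higher in the posterior part and the median log2 difference was 0.96. Cplx3 (a complexin of deep cortical layers) rose by 1.57 (edgeR adjusted p = 0.0142), and Cux2, Tbr1, Nxph4 and Ccn2 rose as well. The call of Nxph4 was lost without mouse 63, 66, 69 or 80 (adjusted p of up to 0.0828), and the count of 5 became 2 without mouse 63, 66, 69, 80 or 84. The summed level of the 8 genes was 144 to 201 CPM in the anterior part of all 7 mice. In the posterior part it was 144 CPM in mouse 68, 178 CPM in mouse 76 and 214 to 342 CPM in the other 5, compared with 644 to 811 CPM in motor cortex of control mice. By plain library totals, the sum was also 379 to 619.5 CPM in medulla, 268 to 314 CPM in olfactory bulb and 220 to 499 CPM in entorhinal cortex. It was 91 to 137 CPM in cerebellum. Posterior levels of this size were therefore not particular to neocortex. Of the striatal list, whose median was 0.15, Adora2a, Rgs9, Drd1, Drd2 and Rarb were not called.

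Thalamic genes moved the other way. Of 8 tested, 4 were lower in the posterior part (Tcf7l2, Prkcd, Tnnt1 and Synpo2), none was higher and the median log2 difference was -1.01. The count was 1 without mouse 69 and 2 without mouse 68, 80 or 84. The summed level of the 10 listed genes was 353 to 657 CPM in the anterior libraries of mice 68, 69, 80 and 84 and 117 to 184 CPM in those of mice 63, 66 and 76. It was 54.5 to 197 CPM in the posterior libraries and 2828 to 4450 CPM in thalamus itself. The shares of the regional differences that go with the levels of neocortical or thalamic genes were not tested. Of 12 choroid plexus genes, 3 were tested and Kl (klotho) fell (log2 difference -0.97, edgeR adjusted p = 0.0181), with 51.4 CPM in the anterior part of mouse 76 and 10.8 to 15.8 CPM in that of the others. Its direction held in all 7 mice. Of 6 ependymal genes, 2 were tested and Foxj1, the regulator of motile cilia, fell by 1.79 (edgeR adjusted p = 0.0128), with 5.89 CPM in the anterior part of mouse 76 and 1.0 to 3.2 CPM in that of the others. None of 8 meningeal genes was called (median -0.12), nor Alas2, the 1 of 5 blood genes tested (-0.14). Of 7 endothelial genes with a median of -0.20, Ly6c1 fell by 0.32 (edgeR adjusted p = 0.0466), a call lost without mouse 63, 66, 68, 69, 80 or 84 (adjusted p of up to 0.107).

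**Figure D3:**
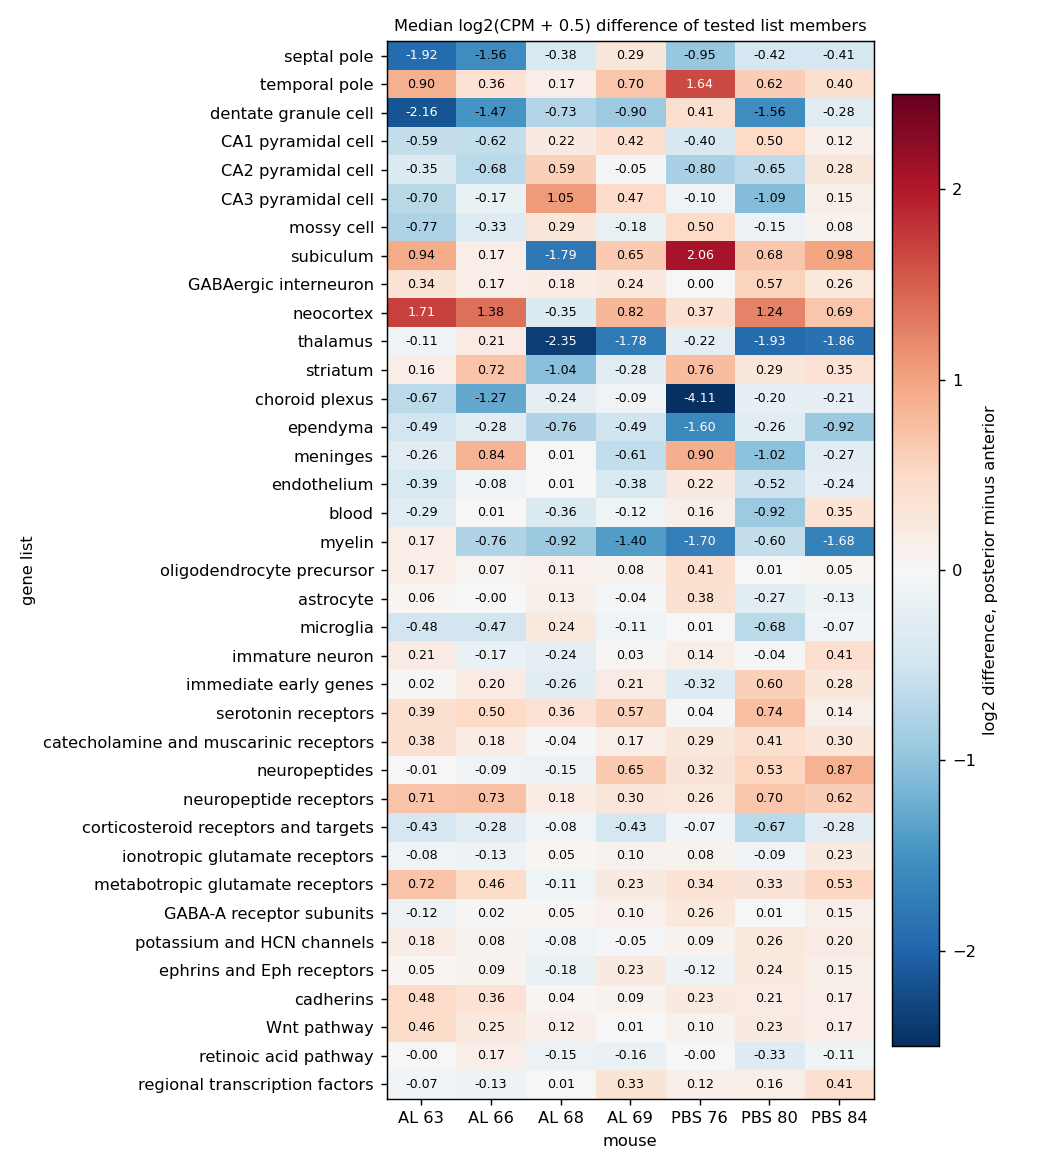
Median difference between parts, posterior minus anterior on log2(CPM + 0.5), of the tested members of 37 gene lists (rows) in each of 7 control mice (columns); the colour scale ends at -2.5 and 2.5, so the choroid plexus value of mouse 76 (-4.11) lies past its end. Thalamic genes were low in the posterior part of mice 68, 69, 80 and 84 and neocortical genes high there in every mouse but 68, while myelin genes were low in every mouse but 63.

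Myelin genes stood lower in the posterior part as a whole list. All 10 fell, with log2 differences from -1.17 to -0.71 and a median of -1.02. Ermn (ermin) was at 80.7 to 188 CPM (median 136) in the anterior and 43.2 to 104 CPM (median 50.6) in the posterior part. It fell in every mouse but 63, where the levels were 80.7 and 84.5 CPM, and the log2 difference was -1.17 ± 0.209 (SE; edgeR adjusted p = 0.00589). Mog (myelin oligodendrocyte glycoprotein, -1.04, edgeR adjusted p = 0.00688) and Aspa (aspartoacylase, -1.01, edgeR adjusted p = 0.0079) behaved alike, also with no fall in mouse 63. With single mice left out, 8 to 10 of the 10 genes were called. None of 5 genes of oligodendrocyte precursors was called (median 0.22).

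Other glial genes changed little. Of 8 astrocyte genes with a median of 0.09, Gfap, the filament of reactive astrocytes, fell and Slc1a3, a glutamate transporter, rose. Gfap ran from 797 to 1473 CPM in the anterior and from 448 to 884 CPM in the posterior part (log2 difference -0.67, edgeR adjusted p = 0.0342), and Slc1a3 from 531 to 739 CPM and from 692 to 962 CPM (0.34, edgeR adjusted p = 0.0448). The Gfap call was lost without mouse 63, 66, 69, 80 or 84 (adjusted p of up to 0.0857) and the Slc1a3 call without mouse 68, 69, 76, 80 or 84 (up to 0.107). Of 8 microglial genes with a median of -0.17, the complement genes C1qb (-0.42, edgeR adjusted p = 0.0201) and C1qa (-0.33, edgeR adjusted p = 0.0263) fell. The first was not called without mouse 66 (adjusted p = 0.0554) and the second without mouse 63, 66, 69, 80 or 84 (up to 0.0716). Of 5 tested genes of dividing cells and immature neurons with a median of 0.00, Dcx (doublecortin) rose by 0.82 (edgeR adjusted p = 0.00761). Mki67, of dividing cells, fell by 1.0 (edgeR adjusted p = 0.0344), a call lost without mouse 63, 66, 68, 69 or 80 (up to 0.0873). Of 12 immediate early genes with a median of 0.16, Dusp1 alone rose (0.46, edgeR adjusted p = 0.0234), and not without mouse 66 or 69 (adjusted p of up to 0.0576).

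Of 24 tested receptors of neuropeptides, 13 rose, against 10.6% of all tested genes, and none fell; the median log2 difference was 0.49. With single mice left out, 6 to 10 were called, with 6 without mouse 66 or mouse 80, and at equal depth, with every library thinned to the smallest total, 6 of the 16 tested rose. Besides Trhr and Sstr1, Sstr2 was at 8.60 to 14.2 CPM (median 11.7) in the anterior and 13.5 to 41.0 CPM (median 29.2) in the posterior part. The ranges met only through the posterior library of mouse 68 and those of mice 66 and 69 in the anterior part, and the log2 difference was 1.14 ± 0.155 (SE; edgeR adjusted p = 0.00192). The remaining 10, singled out after their values were seen, were the receptors of oxytocin (Oxtr, 1.84), neurotensin (Ntsr1, 1.83), cholecystokinin (Cckbr, 1.55), neuromedin B (Nmbr, 1.11), delta opioids (Oprd1, 0.79), VIP (Vipr1, 0.76), corticotropin-releasing hormone (Crhr1, 0.66), somatostatin (Sstr3, 0.47), nociceptin (Oprl1, 0.40) and PACAP (Adcyap1r1, 0.37). Oxtr ran from 1.46 to 6.34 CPM in the anterior and from 5.21 to 12.2 CPM in the posterior part.

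The peptides themselves were mixed. Of 18 tested, with a median of 0.45, Grp, Vip and Tac2 (neurokinin B) rose, and Penk (proenkephalin) and Pdyn (prodynorphin) fell. The Pdyn call was lost without mouse 63, 66, 68, 69 or 80, which left 1 of the 2 that fell, and likewise without the pairing and with limma-voom. Penk ran from 33.1 to 77.0 CPM (median 49.8) in the anterior and from 9.80 to 43.2 CPM (median 17.4) in the posterior part. It fell in all 7 mice, with a log2 difference of -1.33 ± 0.173 (SE; edgeR adjusted p = 0.0017), and the overlap came from mouse 68, the highest in both parts. Among serotonin receptors, 4 of 11 rose and Htr4 fell, with a median of 0.59. The Htr4 call was lost without mouse 63, 66, 68, 69, 80 or 84, without the pairing and with limma-voom. Htr1a, an inhibitory receptor, was at 14.9 to 30.8 CPM (median 22.1) in the anterior and 28.3 to 45.1 CPM (median 33.0) in the posterior part, rising in all 7 mice (log2 difference 0.63, edgeR adjusted p = 0.00452). Htr7 rose by 1.10 (edgeR adjusted p = 0.0237), a call lost without mouse 66, 68 or 80 (adjusted p of up to 0.0621). Htr5a rose by 0.73 (edgeR adjusted p = 0.0276), a call lost without mouse 63, 66, 69 or 80 (up to 0.0792), and the list had 1 call without mouse 80. Of 15 receptors of catecholamines and acetylcholine, with a median of 0.03, Adrb1 (0.39, edgeR adjusted p = 0.00418), Chrm4 (1.70, edgeR adjusted p = 0.00624), Adra2a (0.91, edgeR adjusted p = 0.00736) and Adra1a rose, and Drd5 fell. Drd5 was not called without mouse 66, 69, 80 or 84, nor without the pairing or at equal depth.

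Genes of corticosteroid action leaned the other way. Of 6, 3 fell, none rose and the median log2 difference was -0.30. Sgk1, a kinase induced by corticosteroids, was at 94.4 to 168 CPM (median 109.9) in the anterior and 48.8 to 96.8 CPM (median 82.4) in the posterior part. It fell in every mouse, by 0.60 ± 0.0825 on the log2 scale (SE; edgeR adjusted p = 0.00199), with the ranges meeting at mice 80, 68 and 76. Nr3c2, the mineralocorticoid receptor, fell by 0.70 (edgeR adjusted p = 0.0153) and Hsd11b1, which regenerates active glucocorticoid, by 0.32 (edgeR adjusted p = 0.0234). The latter call was lost without mouse 63, 69 or 80 (adjusted p of up to 0.0594). Nr3c1, the glucocorticoid receptor, had a log2 difference of 0.00 (edgeR adjusted p = 0.996).

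Receptor channels of glutamate and GABA moved in single subunits, with list medians near that of all genes. Over all tested genes 10.6% rose and 7.33% fell, so 1 fall in a list of 15 or 12 lies near that share. Of 15 ionotropic glutamate receptors (median 0.12), Grin3a (log2 difference 0.83, edgeR adjusted p = 0.00482), Grik3 (0.73, edgeR adjusted p = 0.00761) and Gria4 rose and Grin2a fell (-0.52, edgeR adjusted p = 0.0131). Grin2a, an NMDA receptor subunit, was at 304 to 592 CPM (median 427) in the anterior and 237 to 461 CPM (median 299) in the posterior part. It was lower in the posterior part of all 7 mice, though by little in mouse 84. Of 7 metabotropic receptors (median 0.34), Grm3 (0.49, edgeR adjusted p = 0.00187), Grm7 (0.34, edgeR adjusted p = 0.00979) and Grm8 (0.81, edgeR adjusted p = 0.0324) rose. The Grm8 call was lost without mouse 63, 66, 69, 76, 80 or 84 (adjusted p of up to 0.0856). Of 12 GABA-A subunits (median 0.04), Gabrb2 (0.55, edgeR adjusted p = 0.0068), Gabra3 (0.78, edgeR adjusted p = 0.0142) and Gabrg1 rose, and Gabrd, of extrasynaptic receptors, fell (-0.38, edgeR adjusted p = 0.0428). The Gabrd call was lost without mouse 63, 66, 68, 69 or 80 (up to 0.103).

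Potassium and HCN channels held 10 genes that rose and 5 that fell of 40, against 10.6% and 7.33% of all tested genes. The median was 0.12. Kcns1, a silent subunit that modifies Kv2 channels, was at 9.23 to 15.8 CPM (median 12.1) in the anterior and 17.5 to 27.8 CPM (median 24.4) in the posterior part. These ranges did not overlap, and the log2 difference was 0.86 ± 0.109 (SE; edgeR adjusted p = 0.00149). Kcnj6, a G protein-gated inward rectifier, fell by 0.78 (edgeR adjusted p = 0.0047) and Kcnq3, of the M-current, by 0.50 (edgeR adjusted p = 0.00494), each in all 7 mice. With single mice left out, 7 to 10 of the list rose and 3 to 6 fell, with 3 falls without mouse 63, 68, 69 or 80.

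Some molecules that guide axons and hold cells together rose and others fell. Of 19 ephrins and Eph receptors, 3 rose and 3 fell, against 10.6% and 7.33% of all tested genes, with a median of -0.0047. Epha7, a receptor that repels axons, ran from 351 to 597 CPM (median 435) in the anterior and from 116 to 343 CPM (median 199) in the posterior part. The lowest anterior value, in mouse 84, lay just above the highest posterior value, in mouse 76, so the ranges were apart; the log2 difference was -1.18 ± 0.138 (SE; edgeR adjusted p = 0.00111). Efnb2, an ephrin ligand, rose by 1.16 (edgeR adjusted p = 0.00139) and Epha4 fell by 0.50 (edgeR adjusted p = 0.00272), each in all 7 mice. Of 16 cadherins (median 0.27), 5 rose and 2 fell, and the 2 became 1 without mouse 66, 69, 80 or 84. Cdh12 was at 24.3 to 33.5 CPM (median 27.2) in the anterior and 34.4 to 48.9 CPM (median 44.2) in the posterior part. Its ranges did not overlap (log2 difference 0.57, edgeR adjusted p = 0.00397), and Cdh13 (0.54, edgeR adjusted p = 0.00412) and Cdh2 (0.38, edgeR adjusted p = 0.00472) rose in all 7 mice.

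In the Wnt pathway, 8 of 27 genes rose and 3 fell, with a median of 0.17. Wnt7b, a ligand, was at 29.8 to 45.2 CPM (median 36.8) in the anterior and 54.4 to 69.3 CPM (median 58.6) in the posterior part. The ranges were apart and the log2 difference was 0.70 ± 0.0725 (SE; edgeR adjusted p = 0.000648). Its relative Wnt7a, at 7.28 to 10.1 CPM and 10.5 to 16.5 CPM, was likewise apart (0.63, edgeR adjusted p = 0.00416). Wnt4, Wnt5a, Fzd3, Dkk3, Rspo2 and Rspo3 also rose, and Wnt3, Wnt9a and Tcf7l2 fell. Without mouse 80, the 3 that fell became 1.

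The retinoic acid pathway held genes of synthesis and breakdown that both stood lower in the posterior part. Of 14 tested (median 0.03), 2 rose and 3 fell, among them Aldh1a1 and Cyp26b1. Aldh1a1, an enzyme that makes retinoic acid, ran from 77.0 to 139 CPM (median 125) in the anterior and from 29.0 to 68.0 CPM (median 46.1) in the posterior part. No posterior value reached an anterior one, and the log2 difference was -1.29 ± 0.193 (SE; edgeR adjusted p = 0.00281). Cyp26b1, an enzyme that breaks it down, ran from 5.54 to 8.46 CPM and from 1.23 to 4.23 CPM, also apart (-1.38, edgeR adjusted p = 0.00373). The nuclear receptors Rxrg (1.35, edgeR adjusted p = 0.0086) and Rxra rose. At equal depth Rxrg was not called (log2 difference 0.85, edgeR adjusted p = 0.0763).

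Of 22 regional transcription factors (median 0.16), 8 rose and 4 fell. The 8 became 5 without mouse 69 or 84, and the 4 became 2 without mouse 80 and 1 without the pairing when the unpaired anterior library of mouse 72 was added. Lhx2, a LIM homeobox factor that sets cortical identity, was at 40.8 to 59.3 CPM (median 46.9) in the anterior and 62.9 to 78.4 CPM (median 71.2) in the posterior part. The ranges did not overlap, and the log2 difference was 0.50 ± 0.0723 (SE; edgeR adjusted p = 0.00257). Meis2, a homeobox factor, rose by 1.52 (edgeR adjusted p = 0.00418), with posterior levels of 32.6 and 26.4 CPM in mice 68 and 76 and 72.9 to 126 CPM in the others. Zbtb20, a zinc finger factor that sets hippocampal identity, ran from 516 to 905 CPM (median 699) in the anterior and from 154 to 655 CPM (median 353) in the posterior part. It fell in all 7 mice, with the posterior levels of mice 68 and 76 (655 and 624 CPM) inside the anterior range, and the log2 difference was -1.11 ± 0.197 (SE; edgeR adjusted p = 0.00562).

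The levels of the called genes in the 13 other brain regions of control mice gave a measure that the paired test had not used. For each gene, the region with the highest mean CPM was taken among these 13, and some regions were then joined after their values had been seen. Entorhinal, visual or motor cortex was the highest for 38.2% of the genes higher in the posterior part, 6.40% of those higher in the anterior part and 14.3% of all tested genes. Entorhinal cortex alone accounted for 15.2%, 1.9% and 6.14%. Corpus callosum, pons or medulla, which are rich in fibres, was the highest for 10.1% of the genes higher in the posterior part, 26.6% of those higher in the anterior part and 16.1% of all. Thalamus was the highest for 7.02%, 5.00% and 5.29%. A hippocampal mean above all 13 other regions was seen for 5.10%, 14.4% and 5.07%. Unlike the shares above, this one used the hippocampal libraries that made the calls, with the higher of the 2 part means taken for each gene. It is therefore no separate measure.

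Single genes differed in this respect. Fermt1, Vill, Trhr and Rspo2 were highest in entorhinal cortex among the other regions, Trhr with 35.5 CPM. Ntn5 was highest in visual cortex, with 27.5 CPM. Tnnt1 (54.5 CPM), Prkcd (919.6 CPM) and Tcf7l2 (1087 CPM) were highest in thalamus, and Klk6 in medulla (91.8 CPM). Lct was at 1.54 CPM or less and Pla2g2f at 0.518 CPM or less in each of the 13 other regions, against 59.2 and 4.86 CPM in the anterior hippocampus. Epha7 reached 127 CPM outside the hippocampus, below its mean in either part. Some control libraries of corpus callosum carried choroid plexus genes, whose sum ran from 50.0 to 19660 CPM there. Striatal genes summed to 1171 to 3404 CPM in the control libraries of corpus callosum, against 2444 to 4252 CPM in caudate putamen.

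**Figure D4:**
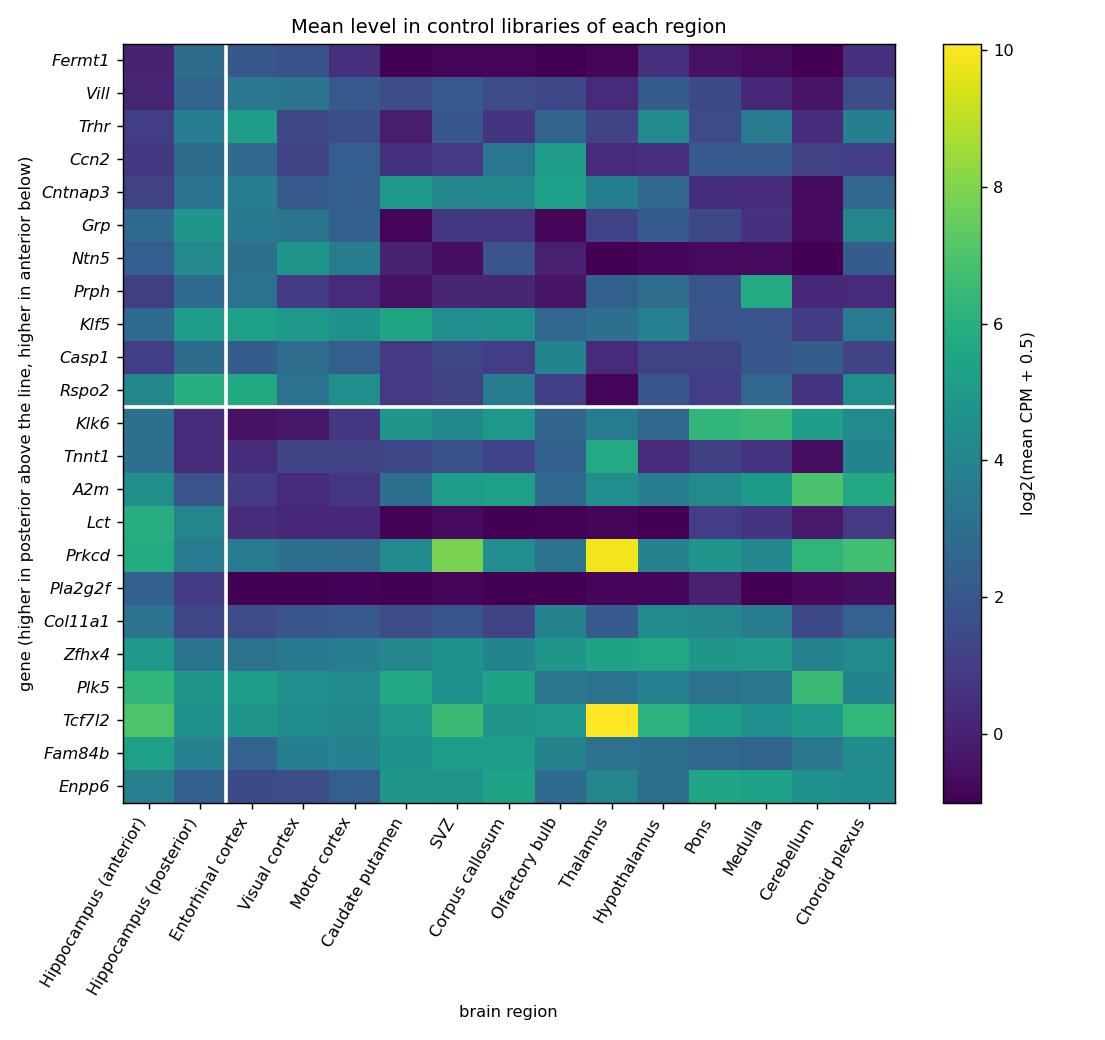
Mean level of genes among the 12 largest named differences in each direction (rows, those higher in the posterior part above the white line, those higher in the anterior part below it) in 15 brain regions of control mice (columns, 6 to 8 libraries each), coloured by log2(mean CPM + 0.5). Lct and Pla2g2f are dark outside the hippocampus, whereas Prkcd and Tcf7l2 are brightest in thalamus and Trhr in entorhinal cortex.

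The regional difference was also fitted in each cohort alone. In the 4 AL females, 694 genes (5.12% of 13547 tested) were called, 412 higher in the posterior (3.04%) and 282 higher in the anterior part (2.08%). In the 3 PBS males there were 182 (1.31% of 13857), with 98 (0.707%) and 84 (0.606%). These counts rested on single mice. In the females edgeR called 0 genes without mouse 66 (2214 had an unadjusted p under 0.05), 8 without mouse 69 and 341 without mouse 63. All 4 together gave 3162 genes (23.3%) with an unadjusted p under 0.05. In the males edgeR called 0 genes without mouse 84 (1287 had an unadjusted p under 0.05), 35 without mouse 80 and 931 without mouse 76. The difference between the cohorts in their regional difference was itself tested: edgeR, DESeq2 and limma-voom each called 0 of 13637 genes (0%), and 403 genes (2.96%) had an unadjusted p under 0.05 in edgeR. Rspo2 had log2 differences of 1.80 in the females and 2.12 in the males, Sstr1 1.47 and 1.58, and Wnt7b 0.73 and 0.64. Lct had -2.81 and -1.72, Prox1 -1.48 and -0.46, and Klk6 -2.27 and -4.21.

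The treated mice of both experiments, 5 on dietary restriction (aDR) and 3 given YMP, gave the same contrast in separate animals of the same age and strain. In these 8 pairs 1960 genes were called (14.8% of 13220 tested), 1136 higher in the posterior (8.59%) and 824 higher in the anterior part (6.23%), and 3954 (29.9%) had an unadjusted p under 0.05. Of the 2452 genes called in control mice, 2403 were tested in treated mice, and 2380 of these differed in the same direction. A total of 1297 were called in the same direction, which is 52.9% of the control calls and 66.2% of the treated calls, and 0 were called in the opposite direction. Of the 100 named genes called in controls, 98 were tested in treated mice, all 98 differed the same way and 81 were called. Trhr (3.16, edgeR adjusted p = 6.58e-06), Sstr1 (1.77, edgeR adjusted p = 1.18e-05) and Wnt7b (0.75, edgeR adjusted p = 1.18e-05) rose there as well. Myelin genes fell in 10 of 10 in the treated mice. Of the 24 neuropeptide receptors tested in controls, 11 rose there, against 8.59% of all genes tested in treated mice. The median of thalamic genes was -0.10 there, against -1.01 in controls, and that of dentate granule cell genes -0.46, with 1 of 7 called. Other lists leaned another way than in controls, and the following are some of them. None of 8 meningeal genes was called in controls (median -0.12), while 3 rose in treated mice (median 0.63). Of 12 immediate early genes, 0 rose and 4 fell in treated mice (median -0.18, against 0.16 in controls). Of 7 CA1 genes, 1 rose and 4 fell there (median -0.57, against -0.09), in a list that shares Wfs1, Fibcd1 and Spink8 with the septal pole. The difference of these lists between treated and control mice was not tested.

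The difference between treated and control mice in their regional difference was tested directly. No gene of 13332 was called by edgeR, DESeq2 or limma-voom (0%), and 289 genes (2.17%) had an unadjusted p under 0.05 in edgeR. Fermt1, with log2 differences of 3.42 in controls and 2.12 in treated mice, had a difference of -1.29 (edgeR adjusted p = 1.0). Tcf7l2, with -1.64 and -0.66, was not called in treated mice (edgeR adjusted p = 0.189), and its difference between the 2 sets of mice was 1.0 (edgeR adjusted p = 1.0).

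**Figure D5:**
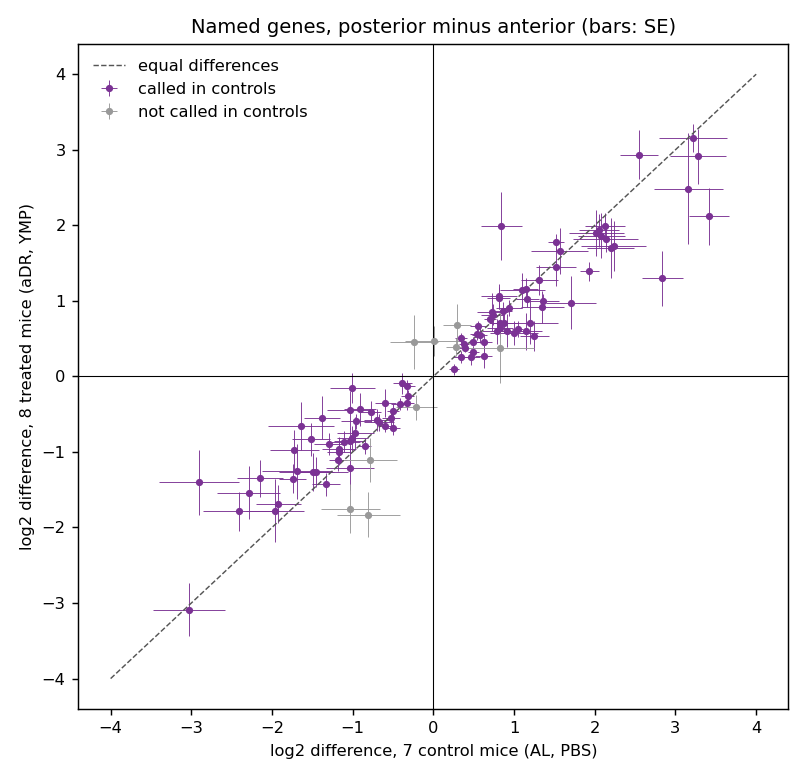
Log2 difference, posterior minus anterior, of the named genes in 7 control mice (horizontal) and 8 treated mice (vertical), with SE from edgeR as bars and equal differences as a dashed line. Purple points are genes called in controls, all 98 of which lie in the quadrants of equal sign, and grey points are genes not called in controls.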

How the data were processed

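Bulk RNA was measured in 14 paired control libraries. The authors deposited 1 table of raw gene counts (whole numbers, not normalized). Reads were trimmed with Trim Galore 0.3.7 and aligned with STAR 2.5.3a to GRCm38, per the submitters' processing notes, which also name DESeq2; the counting program and annotation are not given in the sources used here. Columns were matched to samples by their labels.

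Genes were filtered with filterByExpr (minimum count 10, minimum total 15), scaled by TMM and tested with edgeR 4.0.16 in R 4.3.3 (quasi-likelihood, mouse as block), with Benjamini-Hochberg adjustment over all 13637 genes. SE is the log2 difference divided by the square root of F. limma 3.58.1 (voom) and DESeq2 1.42.0 were alternatives. On simulated data for the 7 control pairs over 13637 genes, edgeR recovered 77% of 1.5-fold and 89% of 2-fold changes, with 14 false calls among 180. Without the pairing it recovered 54% and 89%, with 2 false calls among 145. Only 100 genes were changed at each size, far fewer than were called in the data, so these rates need not carry over. The libraries of a mouse share the animal. With the mean of each region and cohort taken off, the mean correlation of their deviations was 0.175 (-0.152 to 0.419). Taking off these means ties the value between different mice of a cohort (-0.0679) to the first, so it is no separate comparison.

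Named genes were called, of 1 sign in all 7 mice and at 5 CPM or more in the higher region (the 12 largest and the 3 with the smallest p in each direction), all pole genes, and up to 3 called members of each other list by p. Some named genes and list members are not reported here. Other called list members were singled out after their values were seen. The members and the 37 lists (416 genes, 366 tested) were chosen with earlier results of these data known, and some genes stand in more than 1 list. Other settings were an unpaired fit, other scaling, tools and filters, and each mouse left out.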

Additional observations from a re-analysis of the deposited data

Results flagged for a closer look

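In 9 of 152 sets of values, 1 mouse lay far from the others, while chance flags about 1 in 20, or 7.6 of 152. Most sets were the 7 pair differences of a gene or list, and some were depth or count shares of 4 libraries. All 9 flagged sets were of pair differences. Values are posterior minus anterior on log2(CPM + 0.5), and a single gene or the median of a list is meant.

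Mouse 76 was the mouse apart in 6 of these sets. It had 1.69 for Etv1, a transcription factor of the temporal pole list, where the others had -0.97 to -0.08. Necab2, of CA2, was at -0.37 in mouse 76 and 1.38 to 1.85 in the others. Calb2, of mossy cells, was at 3.03 in mouse 76 and 0.32 to 0.90 in the others. Kcns1, a potassium channel subunit, was at 0.21 in mouse 76 and 0.81 to 1.07 in the others. The choroid plexus list was at -4.11 in mouse 76 and -1.27 to -0.09 in the others, and the list of oligodendrocyte precursors at 0.41 and 0.01 to 0.17.

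Mouse 68 was apart for Grm8, a metabotropic glutamate receptor, with -0.87 against 0.46 to 1.40. Mouse 80 was apart for Dusp1, an immediate early gene, with 1.44 against 0.18 to 0.49. Mouse 84 was apart for Lhx2, with 0.88 against 0.30 to 0.52.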

How the results depend on the processing

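The 2452 calls over both cohorts became 2087 without the pairing (1908 shared), 2279 with DESeq2, 2546 with limma-voom and 826 when a change of at least 1.5-fold was also required. Thinning all libraries to the smallest total, chosen after seeing the data, gave 1459 calls of 11634 genes. With single mice left out there were 1422 (without mouse 80) to 2430 (without mouse 76). The 694 calls in AL females became 296 without the pairing and 0 to 692 with single mice left out. The 182 calls in PBS males became 13 without the pairing, 423 with DESeq2, 324 with limma-voom, 410 with no filter, 83 with a filter at 5 CPM and 0 to 931 with single mice left out, where an arm of 2 mice remained. Differences between cohorts and between treated and control mice gave 0 calls in every setting. None of the 100 named genes called over the 7 mice changed direction in any setting that tested it, and 74 (thinned, of 79 tested) to 100 of 100 stayed called. These genes were chosen from the calls of the main fit, some for 1 sign in all 7 mice. A stable direction in the same libraries was therefore largely set by the choice. Without the pairing, 16 of these 100 were not called, Dcn and Nr2f2 among them. Anterior depth, 1957388 counts in mouse 80, limits low genes.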
